A study of Mus musculus with 12 samples.

Results

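The genes described here are the 64 that the authors listed as different between brachial and thoracic motor neurons of control mouse embryos, taken as all rows of 1 deposited table, out of 205 different genes in the 3 tables of the series. The table holds 6 of the 12 libraries: 3 from brachial and 3 from thoracic control cords, each called A, B and C. All 6 come from E12.5 control littermates on a highly mixed C57BL/6 background that carried the Hb9::GFP reporter, which lights up motor neurons from the promoter of the motor neuron gene Hb9. The cords were divided by counting dorsal root ganglia, dissociated and sorted for fluorescence, and RNA was amplified as cDNA before sequencing. The series design names 9 pooled controls without saying how these were divided over libraries, and the labels do not give the alleles that the control littermates carried. Separate embryos for the libraries of a level are not stated either, so every error below is a spread between libraries that may be technical. The other 6 libraries of the series are from E12.5 Pbx mutants, 3 brachial and 3 thoracic. They enter only the comparison with mutants at the end of this section. Which Pbx genes were mutated, and in which cells, is not described here.

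Spinal motor neurons take their identity from where they lie along the body axis. Hox genes sit in 4 clusters, and their order in a cluster follows the order in which they are expressed from head to tail. At brachial level, Hox proteins of the middle paralog groups specify the lateral motor column, whose axons enter the forelimb. At thoracic level, Hox9 proteins specify preganglionic neurons, which contact sympathetic ganglia, and hypaxial neurons, which serve the body wall. Retinoic acid, ligands supplied by muscle and the cell surface proteins of each column then shape pools and axon paths.

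Values are normalized counts, that is reads per gene divided by 1 factor per library. Differences are brachial minus thoracic on the log2(normalized count + 0.5) scale, given with their standard error (SE) from limma over 3 libraries a level. The authors chose the rows by their own adjusted p under 0.05 and a log2 fold limit of 1 on these same libraries, which kept 64 of 13708 tested genes (0.467%). A test on the chosen rows repeats that choice, so limma calls are given as a description of replicate spread. The largest adjusted p in the authors' deposited table was 0.0359. Limma called 63 of 64 genes (98.4%) at an adjusted p under 0.05, of which 23 (35.9%) were higher in brachial and 40 (62.5%) higher in thoracic libraries. For 63 genes (98.4%) the libraries of the levels did not overlap. Necab1, which encodes a neuronal calcium-binding protein, was the exception to both counts. The median log2 difference of the 64 genes was -1.14, and the median absolute difference was 1.44. The fold limit left no gene near 0, so a signed median depends on the balance of directions. In these bulk samples, fewer cells of a type and less RNA per cell cannot be told apart.

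If 1 step of the normalized values is 1 read, the listed genes held 14861 to 15712 reads per brachial library and 14181 to 17457 per thoracic library. None of 17 general motor neuron genes was in the list, so the motor neuron identity of the thoracic libraries was not checked. In the brachial mutant table, brachial control A, B and C held 132, 170.2 and 201 normalized counts of Chat, the enzyme that makes acetylcholine. Of 60 markers of spinal interneurons, dorsal root ganglia, progenitors and glia, mesenchyme and muscle, and blood and vessels, 1 was listed, the interneuron gene Evx2. Levels of the other 59 were not analysed here. Among these, the progenitor marker Nes and the mesenchyme and cartilage markers Postn and Col2a1 are in the thoracic mutant table.

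**Figure D1:**
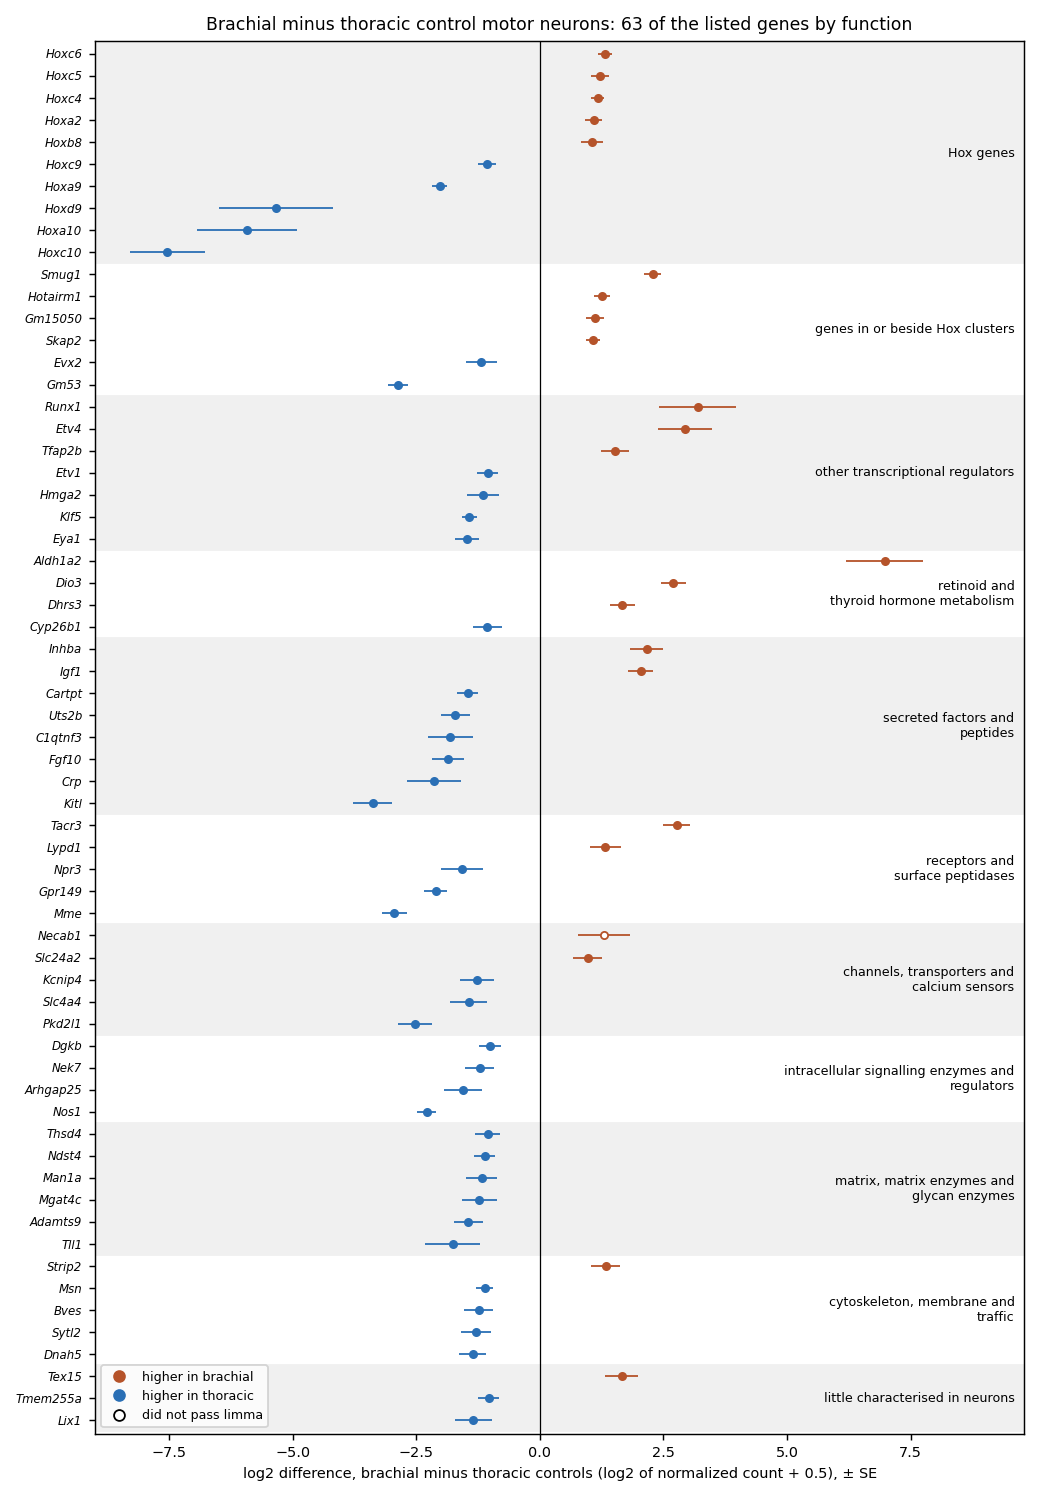
Log2 difference of 63 of the 64 genes (brachial minus thoracic controls, horizontal axis, bars ± SE, n = 3 libraries a level), grouped by function in shaded bands. Genes in the matrix and glycan band and in the signalling band all lie below 0, as do 40 of all 64 genes (62.5%). The open circle marks Necab1 (1.29), the gene that limma did not call.

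The Hox genes split by paralog group, which number the genes by their place in the cluster. Of the 23 Hox genes of groups 1 to 8, 5 were listed and all 5 were called higher in brachial libraries, with a median log2 difference of 1.17. Of the 16 genes of groups 9 to 13, 5 were listed and all 5 were called higher in thoracic libraries, with a median of -5.34. The sizes differed widely: the brachial-higher genes lay close together, while the thoracic-higher genes ran between -1.07 and -7.53. Calls as such covered 63 of the 64 listed genes (98.4%), 23 higher in brachial (35.9%) and 40 in thoracic libraries (62.5%).

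In the HoxC cluster, Hoxc4 had 1544, 1700.1 and 1694 normalized counts in brachial A, B and C, against 728, 747 and 722 in thoracic A, B and C, the order used throughout. Hoxc5 had 772, 765 and 713 in brachial and 288, 388 and 301 in thoracic libraries. Hoxc6, which directs limb-innervating fate in brachial motor neurons, had 1915, 1780.3 and 1972 in brachial and 775, 746 and 759 in thoracic libraries. All 3 genes stood at a little over double the thoracic level, with ratios of means of 2.25, 2.30 and 2.48, and none was near 0 at thoracic level. Hoxc9, which represses the brachial Hox genes in thoracic motor neurons, had 574, 411 and 441 in brachial and 996, 934 and 1037 in thoracic libraries, a log2 difference of -1.07 (SE 0.18). Hoxc10, best known for its role at lumbar level, had 3.37, 1.16 and 0 in brachial and 274, 390.5 and 189 in thoracic libraries. Hoxc9 was thus clearly detected in every brachial library, while Hoxc10 had 4 brachial reads in total if 1 step is 1 read. Annotated exons of Hoxc5 and Hoxc10 overlap on the same strand, so reads from that stretch cannot be assigned to 1 of them with certainty.

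In the HoxA cluster, Hoxa2, a gene of the anterior end, had 553, 611 and 728 in brachial and 268, 289.7 and 329 in thoracic libraries. Hoxa9 had 259.6, 231 and 268 in brachial and 1089.5, 1049 and 951 in thoracic libraries, a log2 difference of -2.02 (SE 0.15). Hoxa10, a posterior neighbour of Hoxa9, had 7.87, 0 and 1.14 in brachial and 147, 142 and 72.2 in thoracic libraries. Hoxa9 was present at both levels, and Hoxa10 stood near 0 in the brachial libraries. The remaining clusters gave 1 Hox gene each. Hoxb8 had 412, 286 and 384 in brachial and 183, 192 and 141 in thoracic libraries, a log2 difference of 1.06 (SE 0.22). Hoxd9, one of the Hox9 genes, had 8.99, 0 and 5.70 in brachial and 125, 201 and 77.1 in thoracic libraries.

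The log2 differences of Hoxd9 (-5.34, SE 1.15), Hoxa10 (-5.92, SE 1.02) and Hoxc10 (-7.53, SE 0.76) depend on single low libraries and on the pseudocount. Without brachial library A they were -6.15, -6.99 and -8.23. Without brachial B, Hoxd9 was at -4.03 and Hoxa10 at -4.96, and without brachial C, Hoxc10 was at -6.75. With pseudocounts of 0.1 and 2 in place of 0.5, Hoxd9 gave -6.16 and -4.52, Hoxa10 gave -6.85 and -4.88, and Hoxc10 gave -8.49 and -6.41. The direction held in each of these settings. In the authors' deposited table the adjusted p was 3.5e-20 for Hoxc10, 8.9e-72 for Hoxa9 and 6e-58 for Hoxc6.

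**Figure D2:**
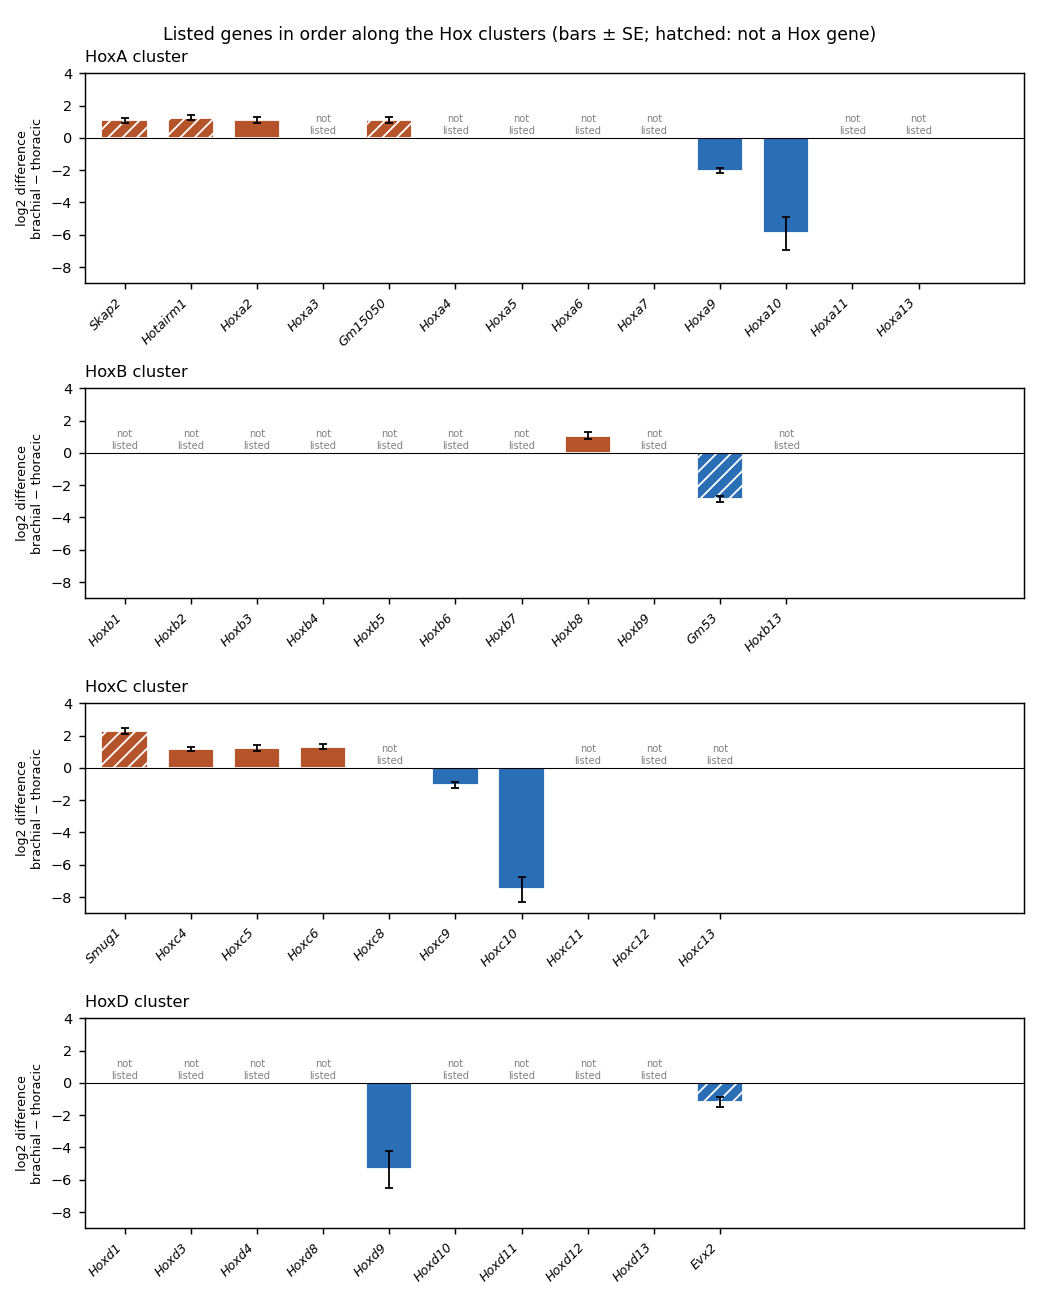
Log2 difference (brachial minus thoracic controls, vertical axis, bars ± SE, n = 3 a level) of listed genes in their order along the HoxA, HoxB, HoxC and HoxD clusters, from the group 1 side on the left. Hatched bars are genes that are not Hox genes, and in each of the HoxA and HoxC clusters the positive bars lie left of the negative ones, which start at group 9.

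A further 6 listed genes lie in or beside the Hox clusters, so that these clusters and their flanks account for 16 of the 64. Smug1, a DNA repair glycosylase beside the HoxC cluster, had 2756, 2822 and 3001 in brachial and 512, 565 and 699 in thoracic libraries, a log2 difference of 2.28 (SE 0.17) with an adjusted p of 2e-117 in the authors' deposited table. Gm53, a long noncoding RNA between Hoxb13 and Hoxb9, had 7.87, 6.97 and 5.70 in brachial and 51.0, 63.8 and 44.9 in thoracic libraries. The spread among libraries of a level was small beside both of these differences, but Gm53 rested on 18 brachial reads if 1 step is 1 read. Skap2, an adaptor protein gene beside the HoxA cluster, was at 291.6 ± 4.11 in brachial and 138.2 ± 0.565 in thoracic libraries (SD, n = 3 each), with the smallest deviations of any listed gene in the plot of deviations. Its neighbours inside the cluster were similar in size of difference: the antisense RNAs Hotairm1 (1.26, SE 0.16) and Gm15050 (1.118, SE 0.18) beside Skap2 (1.07, SE 0.13) and Hoxa2 (1.09, SE 0.18). The labels do not say whether counting used strand, so the levels of antisense RNAs and of other overlapping genes are uncertain. Evx2, the homeobox gene at the posterior end of the HoxD cluster and a marker of some spinal interneurons, averaged 240.9 ± 74.3 in brachial and 546.5 ± 154 in thoracic libraries. Its highest thoracic library was B (686) and its lowest C (381), the same order as for Hoxd9 and Hoxc10.

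Upstream sequence was set beside these values for the genes in RefSeq's promoter table (GRCm38.p6), which matched 47 of the 64. The 250 bases before each start were searched on both strands for TGATTNAT, the composite site of Hox and Pbx proteins, which 3.31% of 27025 genes with a window hold. It was found for 2 of the 47, Hoxa2 (higher in brachial) and Kcnip4 (higher in thoracic), and these windows are shown for that reason. The window of Aldh1a2, the gene with the largest brachial difference, held none of the motifs searched and is printed beside them. Capitals mark the match to TGATTNAT, which lies on the reverse strand in Hoxa2 and on the forward strand in Kcnip4, and, further upstream in Kcnip4, a reverse-strand match to AGGTCA, the core element of retinoid receptors. Hoxa2 lies at chr6:52164832-52165081 on the minus strand, Kcnip4 at chr5:49285660-49285909 on the minus strand (1 of its 2 starts), and Aldh1a2 at chr9:71215539-71215788 on the plus strand.
Hoxa2: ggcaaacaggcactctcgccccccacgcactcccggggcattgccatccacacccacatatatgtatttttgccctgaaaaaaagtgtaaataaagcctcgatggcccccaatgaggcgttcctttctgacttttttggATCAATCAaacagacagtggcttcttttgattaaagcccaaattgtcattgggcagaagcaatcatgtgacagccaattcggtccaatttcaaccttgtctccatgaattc
Kcnip4: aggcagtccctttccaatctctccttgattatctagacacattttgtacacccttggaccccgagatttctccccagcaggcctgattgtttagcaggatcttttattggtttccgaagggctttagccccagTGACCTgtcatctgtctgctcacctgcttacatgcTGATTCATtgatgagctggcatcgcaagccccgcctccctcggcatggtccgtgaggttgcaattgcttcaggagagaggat
Aldh1a2: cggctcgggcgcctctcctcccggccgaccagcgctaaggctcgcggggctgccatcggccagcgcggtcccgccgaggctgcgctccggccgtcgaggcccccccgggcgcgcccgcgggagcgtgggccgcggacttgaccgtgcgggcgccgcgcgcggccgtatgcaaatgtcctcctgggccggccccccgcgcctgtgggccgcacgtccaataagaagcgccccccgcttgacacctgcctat
The other motifs searched were AGGTCA (4 of 47 listed genes, 15.76% of all), the direct repeat of AGGTCA with a spacer of 5 bases, whose parts also count as AGGTCA (0 of 47, 0.01% of all), the homeodomain core TAATTA (3 of 47, 5.65%), TGACGTCA (1 of 47, 1.77%) and the ETS core CCGGAAGT (0 of 47, 3.23%). A match describes the letters of a window and does not show that a factor binds there.

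Among 7 other transcriptional regulators, 3 were higher in brachial and 4 in thoracic libraries. Runx1, a runt factor of some cervical motor neurons, had 28.1, 72.0 and 34.2 in brachial and 5.94, 9.45 and 0.976 in thoracic libraries, a log2 difference of 3.19 (SE 0.78). Etv4, an ETS factor that limb target signals induce in motor pools, had 23.6, 49.97 and 29.7 in brachial and 1.70, 7.87 and 3.90 in thoracic libraries, a difference of 2.94 (SE 0.54). Brachial library B was highest and thoracic B was highest for both genes. Tfap2b, which encodes an AP-2 factor, was at 3484 ± 680 in brachial and 1239 ± 343 in thoracic libraries (SD, n = 3 each). On the thoracic side stood Klf5 (-1.42, SE 0.15), a zinc finger factor, Eya1 (-1.47, SE 0.24), a coactivator of sine oculis homeodomain proteins, the chromatin protein gene Hmga2 (-1.16, SE 0.32) and Etv1 (-1.05, SE 0.21), a second ETS factor of motor pools. The ETS genes Etv4 and Etv1 therefore differed between levels in opposite directions. Of 79 non-Hox transcription factor genes, 5 were listed, 2 called higher in brachial (Runx1 and Etv4) and 3 in thoracic libraries (Etv1, Evx2 and Klf5). Their median was -1.05, and 62.5% of the whole list was called higher in thoracic libraries.

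Of 4 genes of retinoid and thyroid hormone metabolism, 3 were higher in brachial and 1 in thoracic libraries. Aldh1a2, the retinaldehyde dehydrogenase that makes retinoic acid and marks lateral column neurons, had 318, 784 and 703 in brachial and 5.10, 10.2 and 0.976 in thoracic libraries. Its log2 difference of 6.97 (SE 0.78) was the highest in the list, and it was 7.61 without thoracic library B and 6.18 without thoracic C, in which Aldh1a2 was at 1 step. Its adjusted p in the authors' deposited table was 3.1e-15. Dhrs3, which converts retinaldehyde back to retinol, was also higher in brachial libraries, at 43.1 ± 10.97 against 13.1 ± 2.49 in thoracic libraries (SD, n = 3 each). Cyp26b1, which breaks retinoic acid down, was higher in thoracic libraries, with 98.9, 54.6 and 100.4 in brachial and 207, 146 and 166 in thoracic libraries, a difference of -1.06 (SE 0.30). Of the 19 genes of retinoid metabolism and reception, these 3 were listed, 2 higher in brachial and 1 in thoracic libraries. Their median was 1.67, and all 3 were called, as was 98.4% of the list. Dio3, the enzyme that inactivates thyroid hormone, had 23.6, 30.2 and 21.7 in brachial and 4.25, 2.36 and 3.90 in thoracic libraries, and its level rested on 12 thoracic reads if 1 step is 1 read.

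Secreted factors were the largest class outside the Hox genes, with 2 genes higher in brachial and 6 higher in thoracic libraries. Over the whole list, 40 of 64 genes (62.5%) were higher in thoracic libraries. Inhba, the subunit of activin A, had 60.7, 102 and 102 in brachial and 22.9, 22.8 and 12.7 in thoracic libraries. Igf1, insulin-like growth factor 1, averaged 528.5 ± 130 in brachial and 126.2 ± 20.6 in thoracic libraries (SD, n = 3 each), a log2 difference of 2.04 (SE 0.25). Both growth factor genes stood well above their thoracic level, with ratios of means of 4.53 and 4.19. Kitl, the ligand of the Kit receptor and a mark of hypaxial motor neurons, had 58.4, 72.0 and 45.6 in brachial and 439.9, 475 and 1066 in thoracic libraries. Thoracic library C held over double the Kitl of A and B, and the lowest thoracic library still lay above every brachial one. Such non-overlap of the levels was shared by 98.4% of the list. The log2 difference was -3.38 (SE 0.39), with an adjusted p of 1.5e-10 in the authors' deposited table.

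The other thoracic-higher secreted products were of several kinds. Cartpt, the precursor of CART peptides, averaged 22.4 ± 1.38 in brachial and 63.8 ± 14.2 in thoracic libraries (SD, n = 3 each). Uts2b, the precursor of a urotensin-related peptide, averaged 38.2 ± 13.3 in brachial and 122.6 ± 18.2 in thoracic libraries. For both peptide genes the lowest thoracic library was well above the highest brachial one, and levels did not overlap for 98.4% of the list. Fgf10, a fibroblast growth factor, differed by -1.86 (SE 0.33), on 25 brachial reads if 1 step is 1 read. Crp, which encodes the acute-phase C-reactive protein, differed by -2.14 (SE 0.55) and C1qtnf3, a C1q-related protein gene, by -1.81 (SE 0.46). Crp was uneven at both levels, with 7.87, 10.5 and 30.8 in brachial and 42.5, 66.1 and 85.9 in thoracic libraries. Of 46 growth factor and chemokine genes in the list, 4 were listed and called, 2 in each direction, beside 98.4% called of all 64. Their median of 0.09 lies between the directions, and their median absolute log2 difference was 2.10.

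Receptors and surface peptidases were split 3 and 3. Tacr3, the receptor for neurokinin B, had 24.7, 37.2 and 19.4 in brachial and 3.40, 3.94 and 2.93 in thoracic libraries, a difference of 2.77 (SE 0.27). Mme, which encodes the peptide-degrading enzyme neprilysin, had 16.9, 20.9 and 24.0 in brachial and 143, 134 and 214 in thoracic libraries, a difference of -2.94 (SE 0.25). The levels were far apart in every library for both genes, beside 98.4% of the list without overlap. Adjusted p in the authors' deposited table was 0.00053 for Tacr3 and 5.7e-20 for Mme. Gpr149, an orphan receptor gene, was higher in thoracic libraries (-2.11, SE 0.23). Lypd1, which binds nicotinic acetylcholine receptors, was higher in brachial libraries (1.32, SE 0.32). Npr3, the clearance receptor of natriuretic peptides, was higher in thoracic libraries (-1.58, SE 0.42). Of 47 genes of peptides, hormones, their receptors and enzymes, 5 were listed and called, beside 98.4% called of all 64. Tacr3 and Dio3 were higher in brachial and Cartpt, Npr3 and Mme in thoracic libraries, with a median of -1.46.

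**Figure D3:**
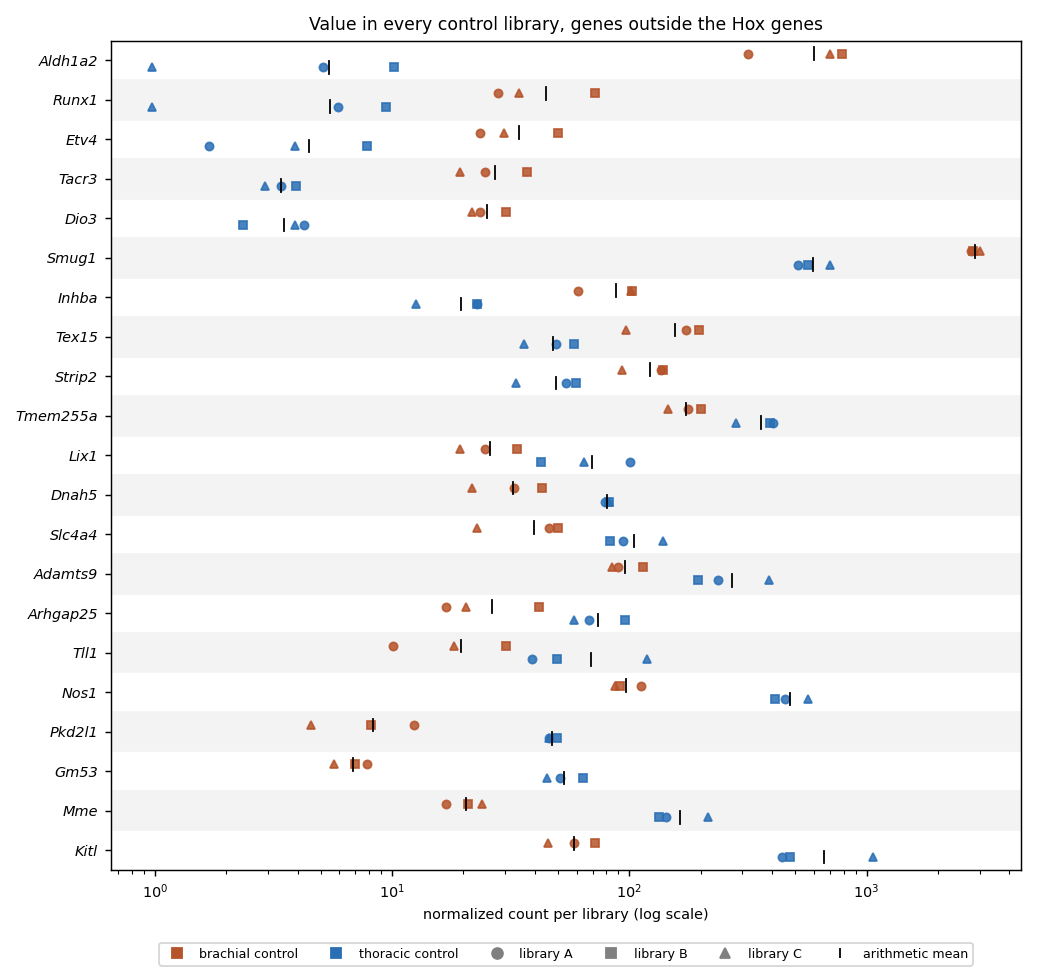
Normalized count of each control library (horizontal log axis) for the genes with the largest differences of each class outside the Hox genes. Brachial points (orange) are drawn in the upper and thoracic points (blue) in the lower line of each row, symbols mark libraries A, B and C, and black ticks the arithmetic mean. The colours do not overlap in any row shown, as in 63 of the 64 listed genes (98.4%). The authors chose the listed genes on these same libraries. The thoracic points of Aldh1a2, Runx1, Etv4, Tll1 and Kitl spread the most for their mean.

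Channels, transporters and calcium sensors gave 2 genes with higher means in brachial and 3 in thoracic libraries. Pkd2l1, a polycystin channel known from the neurons that contact cerebrospinal fluid at the central canal, had 12.4, 8.13 and 4.56 in brachial and 45.9, 49.6 and 45.9 in thoracic libraries. Slc4a4, a sodium bicarbonate cotransporter, had 46.1, 49.97 and 22.8 in brachial and 94.3, 82.7 and 139 in thoracic libraries. Kcnip4, a subunit of A-type potassium channels whose upstream window is printed above, averaged 109.7 ± 39.8 in brachial and 262.0 ± 81.0 in thoracic libraries (SD, n = 3 each). The brachial side was less firm. Slc24a2, a potassium-dependent sodium and calcium exchanger, had 97.8, 135 and 68.4 in brachial and 58.6, 49.6 and 41.0 in thoracic libraries, and its difference of 0.97 was no longer called without thoracic library C (0.84). Necab1 had 97.8, 103 and 35.4 in brachial and 45.01, 28.3 and 18.5 in thoracic libraries, so that brachial C lay below thoracic A, and limma called it without brachial library C (1.79) or without thoracic A (1.61). Of 72 channel and transmitter receptor genes in the list, Kcnip4 and Pkd2l1 were listed, with a median of -1.90. Both were called higher in thoracic libraries, as were 62.5% of all 64 genes.

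All 4 intracellular signalling genes were higher in thoracic libraries, as were 40 of the 64 listed genes (62.5%). Nos1, neuronal nitric oxide synthase, which many preganglionic neurons make, had 112, 91.8 and 86.7 in brachial and 454, 412 and 564 in thoracic libraries, a log2 difference of -2.29 (SE 0.20) with an adjusted p of 1.1e-38 in the authors' deposited table. Arhgap25, which encodes a GTPase-activating protein, had 16.9, 41.8 and 20.5 in brachial and 67.9, 96.0 and 58.5 in thoracic libraries. The kinase genes were nearer the limit of the list, with Nek7 at -1.22 (SE 0.29) and Dgkb, a diacylglycerol kinase, at -0.9995 (SE 0.22). Dgkb had 182, 169.7 and 234 in brachial and 348, 343 and 485 in thoracic libraries, and it sits just inside the authors' fold limit, as Slc24a2 does on the brachial side.

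The 6 genes of the matrix and of glycan synthesis were higher in thoracic libraries for every member, a direction shared by 62.5% of the list. Adamts9, a secreted metalloprotease, had 89.9, 114 and 84.4 in brachial and 236, 194 and 386 in thoracic libraries. Tll1, a tolloid-like protease that processes matrix and BMP-binding proteins, had 10.1, 30.2 and 18.3 in brachial and 39.1, 49.6 and 119 in thoracic libraries. Thoracic library C was highest for both proteases, and Tll1 was no longer called without brachial library A (-1.37). Thsd4, a fibrillin-binding protein gene, differed by -1.06 (SE 0.25) and Ndst4, which modifies heparan sulfate, by -1.11 (SE 0.21). Man1a, a Golgi mannosidase, differed by -1.18 (SE 0.31) and Mgat4c, of a family that branches N-glycans, by -1.22 (SE 0.35). None of 51 adhesion, 47 axon guidance or 51 matrix genes in the lists was among the 64, so this class rests on members outside those lists and was drawn up from the listed symbols.

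Of 5 genes of the cytoskeleton, membrane and traffic, 4 were higher in thoracic libraries, beside 62.5% of the whole list. Dnah5, an axonemal dynein heavy chain, had 32.6, 43.0 and 21.7 in brachial and 79.0, 81.9 and 82.0 in thoracic libraries, which were closely alike. Msn, the membrane linker moesin, averaged 216.9 ± 31.2 in brachial and 469.8 ± 48.0 in thoracic libraries (SD, n = 3 each). Sytl2, a Rab27 effector, differed by -1.29 (SE 0.30) and Bves, a membrane protein of the Popeye family, by -1.24 (SE 0.29). Strip2, a member of the STRIPAK phosphatase complex, was the brachial-higher gene, with 136, 138 and 93.5 in brachial and 54.3, 59.8 and 33.2 in thoracic libraries. As in 63 of the 64 listed genes (98.4%), the libraries of the levels did not overlap for these 5. Among genes little studied in neurons, Tex15, known from the germ line, had 174, 198 and 97.0 in brachial and 49.3, 58.3 and 36.1 in thoracic libraries. Lix1, named for limb expression in chick, had 24.7, 33.7 and 19.4 in brachial and 101, 42.5 and 64.4 in thoracic libraries. Tmem255a, a membrane protein gene, had 176, 199.9 and 146 in brachial and 403, 390.5 and 283 in thoracic libraries. The levels did not overlap for these last 3 either, as in 98.4% of the list.

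Set against the motor column lists, the 5 listed members of the 21 lateral column and limb pool genes were Aldh1a2, Runx1 and Etv4, called higher in brachial, and Etv1 and Npr3, called higher in thoracic libraries, with a median of 2.94. Of 12 hypaxial and median column genes, Kitl and Etv1 were listed and called, both higher in thoracic libraries (median -2.22), and of 10 preganglionic genes Nos1 was (-2.29). The column lists thus named 7 of the 64 genes, and 41 genes lay outside both the column lists and the Hox clusters. Over the whole list, limma called 98.4%, with 35.9% higher in brachial and 62.5% higher in thoracic libraries.

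The median coefficient of variation between replicates was 23.7% in brachial and 22.2% in thoracic libraries, and it was over 50% for 9 genes in brachial and 5 in thoracic libraries. The root mean square deviation of a library from the mean of its level, on the log2 scale, was 0.49, 0.55 and 0.44 in brachial A, B and C, against 0.29, 0.37 and 0.47 in thoracic A, B and C. Genes with few brachial reads weigh heavily on the brachial figures. In brachial A, B and C, Hoxd9 deviated by 1.62, -2.63 and 1.01 and Hoxa10 by 2.14, -1.93 and -0.21. Hoxc10 deviated by 1.39, 0.17 and -1.56. The figures were not computed without these genes, so they do not show that brachial libraries vary more. Brachial library B was the highest of its level for 34 of 64 genes. Thoracic library C was the lowest of its level for 29 of 64 genes, and for 15 of the 24 genes that were higher in brachial libraries. The 3 genes with the fewest brachial reads, Hoxd9, Hoxa10 and Hoxc10, were also lowest in thoracic C, while Kitl, Tll1 and Adamts9 were highest there. Without thoracic library C, Slc24a2 was the 1 gene that lost its call. Runx1, at 3.19 with all libraries, was at 2.38 without it.

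**Figure D4:**
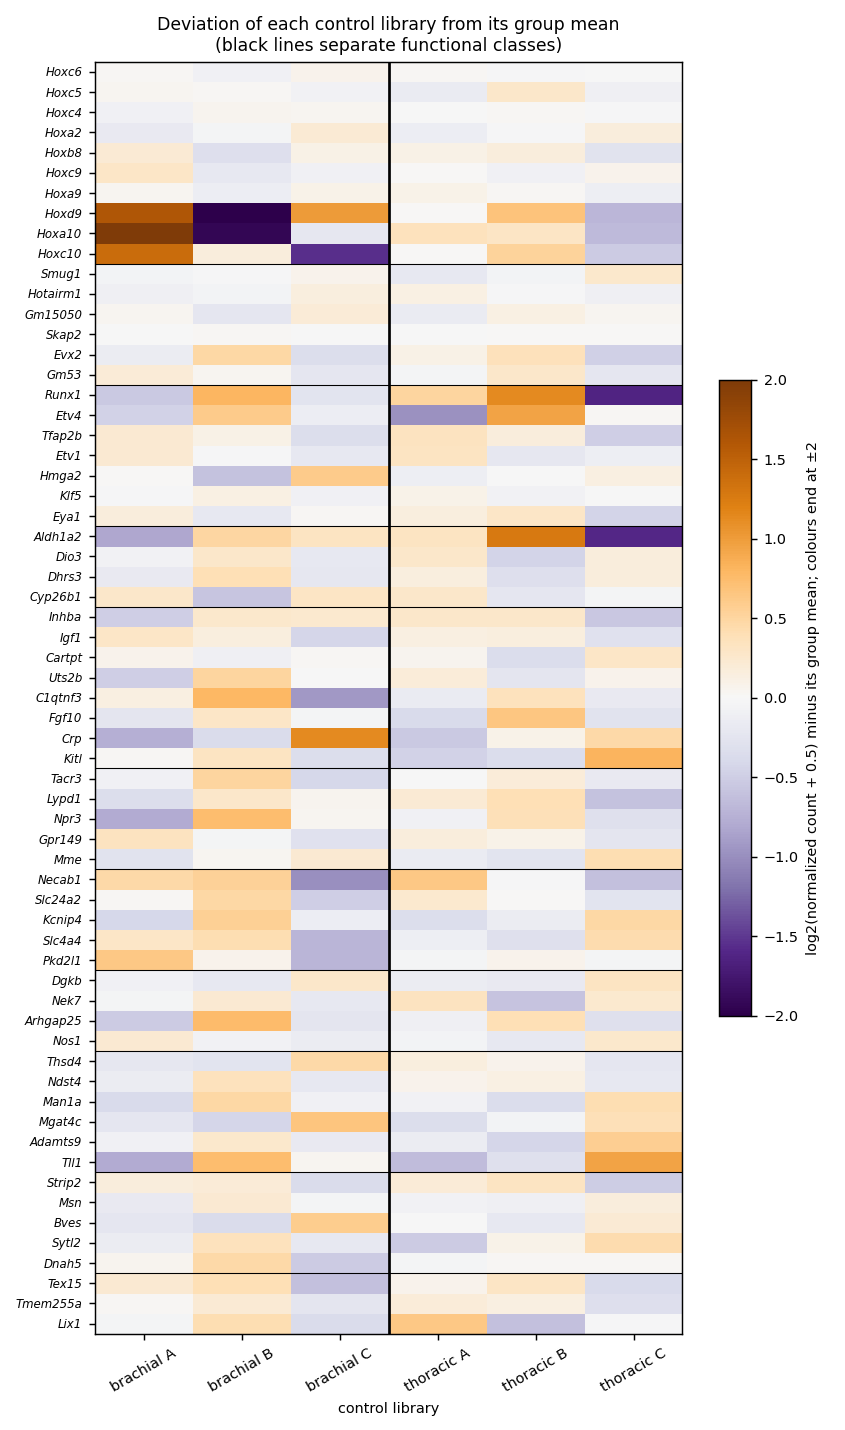
Deviation of each library from the mean of its level on the log2(normalized count + 0.5) scale, 63 of the 64 genes in rows by functional class and libraries in columns, with brachial left of thoracic. The strongest colours are at Hoxd9, Hoxa10 and Hoxc10 in brachial libraries and at Aldh1a2 and Runx1 in thoracic libraries, while Skap2 is nearly white throughout.

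The mutant tables hold some of these genes with the same control libraries, scaled separately. The thoracic mutant table lists 21 of the 64 (32.8% of these and 16.2% of that table). Of the 21, 19 were lower and 2 higher in thoracic mutants than in thoracic controls. The 19 were higher in thoracic than in brachial controls, and the 2 were lower. The same thoracic control libraries entered both choices of rows, so these directions are not independent. The share of lower genes over the whole thoracic mutant table was not counted here. Mme had 38.4, 12.1 and 24.5 in thoracic Pbx mutants and 164, 154 and 246 in thoracic controls. Etv4 had 30.5, 51.6 and 56.2 in thoracic mutants and 1.95, 9.08 and 4.49 in thoracic controls. Cyp26b1 and Kcnip4 are also in the brachial mutant table, where Kcnip4 had 50.7, 31.6 and 34.1 in brachial mutants and 70.9, 139 and 86.5 in brachial controls.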

How the data were processed

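RNA sequencing of sorted embryonic motor neurons was analysed for 6 control libraries. The tools named in the submitters' processing notes are DESeq2 1.12.3, HTSeq 0.6.1p1, Picard 1.88 and Bowtie 1.0.0, and the builds are mm9 and NCBIM37, without roles or settings. The authors deposited per-library values that the sheet titles call CPM and that behave as a normalized signal: within each library every nonzero value (100%) is a whole number of steps, at a tolerance of 1e-06, and their row means equal the deposited mean column. The tables also hold log2 fold changes, a test score and p-values that the authors computed and deposited. Library totals were not analysed here, so depth is known only for the listed genes.

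The limma package 3.58.1 (R 4.3.3) was run on log2(value + 0.5) of every row, on 2 groups with Benjamini-Hochberg adjustment over the 64 rows and a threshold of 0.05. Members, lists and classes were chosen with earlier results of these data known. The 64 genes were put in 11 functional classes by symbol. Values in every library are given for the Hox genes, for the 2 largest differences of each class (all in a class of 3) and for the 3 smallest of the table, and for Cyp26b1, Necab1 and Crp, and for Evx2, Lypd1 and Npr3 in the thoracic libraries, after their values were seen. Lists were counted without a set test. The values of 1 listed gene enter the counts and are not reported here. All 64 identifiers matched GENCODE on GRCm38, where 18 share exon sequence with another gene, 14 of them on the opposite strand. The fit was tested on simulated data. Python 3.11.15, numpy 2.4.6, pandas 2.3.3 and matplotlib 3.10.9 were used for the other steps. Alternatives were pseudocounts, a minimum mean, the replicate letter as a block, an intensity trend and leaving out each library.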

Additional observations from a re-analysis of the deposited data

How the results depend on the processing

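Under 11 other settings, 696 of 704 gene results kept their direction and their side of the threshold, 3 lost and 5 gained a call, and 0 turned round. Of 64 genes, 64 passed with the replicate letter as a block, 64 with an intensity trend and 64 with a pseudocount of 2, against 63, the gain being Necab1 each time. A minimum mean of 10 removed no gene. Leaving out each library gave between 61 and 64 genes, 22 to 24 higher in brachial and 39 to 40 higher in thoracic libraries. Deviations from the group means correlated at 0.29, -0.03 and 0.16 between brachial and thoracic A, B and C over the 64 genes. Brachial A and C correlated best with the thoracic library of the same letter, and brachial B with thoracic C (0.07). Whether the letters pair the libraries is therefore not settled. A count model on whole reads was planned and not run, since the deposited values are normalized and the listed genes give too few low values to check a recovery of reads. No other scaling was tried, because the rows were selected for change. If 1 step is 1 read, 12 genes rested on under 30 reads over the libraries of 1 level, so the size of their differences is imprecise. The 7 low in brachial libraries were C1qtnf3, Fgf10, Pkd2l1, Gm53, Hoxd9, Hoxa10 and Hoxc10. The 5 low in thoracic libraries were Aldh1a2, Runx1, Etv4, Tacr3 and Dio3. The authors' deposited log2 fold changes had the same sign for 64 of 64 genes and differed by over 0.2 for 4, Hoxa10, Hoxd9, Aldh1a2 and Tacr3.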

Other observations

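Chromosome 6 holds 10 of the 64 and chromosome 15 holds 9. Besides the HoxA genes and their neighbours, chromosome 6 carries Adamts9, Arhgap25, Cyp26b1 and Strip2, and besides the HoxC genes and Smug1, chromosome 15 carries C1qtnf3, Dnah5 and Npr3. By biotype in the authors' table, 61 genes are protein-coding, 2 are antisense RNAs (Hotairm1 and Gm15050) and 1 is a lincRNA (Gm53), and all 3 noncoding genes lie in Hox clusters.

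Among the thoracic libraries, the genes with the largest brachial differences were ordered differently. Aldh1a2 had 5.10, 10.2 and 0.976 normalized counts in thoracic libraries A, B and C, and Runx1 had 5.94, 9.45 and 0.976. Thoracic B was the highest and C the lowest library for both and for Tacr3 (3.40, 3.94 and 2.93), while A was the lowest for Etv4 (1.70, 7.87 and 3.90), B the lowest for Dio3 (4.25, 2.36 and 3.90) and C the highest for Smug1 (512, 565 and 699). The order of Aldh1a2 was also that of Hoxc10 (274, 390.5 and 189), Hoxd9 (125, 201 and 77.1), Evx2 (572, 686 and 381), Lypd1 (193, 219 and 109) and Npr3 (51.0, 70.8 and 43.9). Over all 24 genes with means that were higher in brachial libraries, thoracic B was the highest library for 13 and thoracic C the lowest for 15. The thoracic-higher genes Kitl, Mme, Nos1, Kcnip4, Slc4a4, Adamts9, Man1a and Tll1 had thoracic C as the highest library and, in each of them except Kitl, Kcnip4 and Tll1, thoracic B the lowest. These genes were picked after their values were seen, and 3 libraries allow no test of the order.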
